A study of Mus musculus with 8 samples.

Results

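Neurons that release GABA make it, pack it into vesicles, take it back up and break it down. The transcripts of 7 genes of this cycle (Gad1, Gad2, Slc32a1, Slc38a1, Slc6a11, Abat and Aldh5a1) were followed in single cortical interneurons. They were taken by name from a table of 23335 gene names, all 7 were found, and every cell with a count was used. Glutamate decarboxylase, encoded by Gad1 and Gad2, converts glutamate to GABA, and the Gad1 product is known to make most of the cell's GABA while the Gad2 product is found mainly at nerve endings. The vesicular transporter encoded by Slc32a1 loads GABA into synaptic vesicles, Slc38a1 encodes a carrier that brings glutamine into neurons as a precursor, and Slc6a11 encodes a plasma membrane GABA transporter best known from astrocytes. GABA transaminase (Abat) and succinic semialdehyde dehydrogenase (Aldh5a1) act in mitochondria, one after the other, and return the carbon of GABA to the citric acid cycle as succinate.

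Chandelier cells (ChC), interneurons that form synapses on the initial part of pyramidal cell axons, came from mice of the genotype Nkx2.1-CreER; Ai14, and parvalbumin cells (Pv) from mice of the genotype Pv-ires-Cre; Ai14. Ai14 is a reporter that makes a red fluorescent protein once Cre has acted, so a ChC was defined by Nkx2.1 activity at the time of induction and a Pv cell by activity of the parvalbumin gene. ChC were induced with 150 ul of tamoxifen at 20 mg/ml at E17.5, before birth. The labels repeat that induction for the Pv samples, although it names only the Nkx2.1-CreER line. All 4 animals were female and had no other treatment, and red cells of frontal cortex were picked by hand into single tubes. Animals 1 and 2 gave ChC at postnatal days 31 and 32, and animals 3 and 4 gave Pv cells at postnatal days 29 and 35. Each animal gave a pair of library batches of up to 16 cells. Batches 1 and 2 came from animal 1, batches 3 and 4 from animal 2, batches 5 and 6 from animal 3, and batches 7 and 8 from animal 4. Cell type, mouse line, flow cell and, if it was given to ChC alone, tamoxifen cannot be told apart in this design. Animals 1 and 3 were labelled lane 1 and animals 2 and 4 lane 2. Within a cell type, animal, lane and age cannot be told apart either.

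Each molecule was counted by a random tag (UMI). With all rows of a gene summed, which counts molecules of identical rows repeatedly, a ChC held a median of 39200 UMI (range 1053 to 606191, 63 cells). A Pv cell held a median of 27116 UMI (range 2325 to 108081, 63 cells). Summed over cells, batches 1 to 4 (ChC) gave totals of 527743, 657957, 2898413 and 1307666, and batches 5 to 8 (Pv) totals of 456458, 501563, 370238 and 921212. With 1 row per gene the totals ran from 316540 in batch 7 to 2460679 in batch 3. Levels are given as CPM, the share of a gene in the UMI of the batch scaled to 1e+06, so that a single molecule was worth more in shallow batches. A gene with no UMI could have lain at up to 1.035 CPM in batch 3 and at up to 8.10 CPM in batch 7, the level of 3 molecules. Each member but Slc38a1 had 1 row in the table. Slc38a1 had 3 rows with identical counts in every cell, so their sum counts each molecule 3 times. Its levels are therefore given from 1 of these rows, as CPM of a table with 1 row per gene, and its fold change from the sum. Ratios between the batches of an animal use 1 row per gene throughout, and can differ slightly from the ratio of the levels printed.

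The labels of the cells were compared with marker genes listed for them, with several rows of a gene summed. Of 12 genes of GABA neurons from the medial ganglionic eminence, 11 had a row, and between 9 and 11 of these had UMI in each batch, with a summed level between 4986 and 10723 CPM. Much of this came from 1 gene per batch. Erbb4 led in the ChC batches, and Satb1 in batch 6, at 3007 CPM over 4 rows but 875 CPM from 1 row. Without the top gene of each batch the sum was 1714 to 5949 CPM. Pvalb, the gene behind the Pv line, was at 573 to 1413 CPM in the Pv batches and at 74.2 to 166 CPM in the ChC batches, without overlap. That gene also defined the Pv cells picked. Satb1 (412 to 3007 CPM in Pv against 0 to 377 in ChC) and Syt2 (10.8 to 57.8 against 0.690 to 10.7, on 2 to 29 UMI per batch) were likewise higher in Pv batches. Erbb4 was lower there (1091 to 1853 against 3312 to 4774). The other genes listed overlapped, among them Kcnc1 (283 to 1215 against 490 to 1391) and Tac1 (0 to 556 against 0 to 1787). Markers of other GABA neurons summed to between 68.2 and 650.2 CPM in 7 batches and to 2519 CPM in batch 4, where Adarb2 alone reached 1449 CPM, while Vip had no UMI in any batch. Pyramidal markers summed to between 60.6 and 1099 CPM in 7 batches and to 2647 CPM in batch 7. There Camk2a was at 1194 CPM over its 2 rows but at 701 CPM from 1 row, below Nrgn, with 1 row in all, at 1308 CPM on the same scale. Slc17a6, Neurod6 and Tbr1 had no UMI in any batch. Astrocyte markers ran from 114 CPM in batch 6 to 2020 CPM in batch 7, led there by Slc1a2 at 1067 CPM over 3 rows (603 CPM from 1 row), and Gfap had no UMI in any batch. Markers of oligodendrocytes and their precursors stayed at or below 254 CPM, microglial markers at or below 91.8 CPM and vascular markers at or below 116 CPM. Batch 7 was thus the shallowest batch and the richest in pyramidal and astrocyte markers, also with 1 row per gene, where these summed to 2401 and 1655 CPM. The part of these RNAs in the results below was not tested.

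Before the genes are taken in turn, a property of the libraries bears on all of them. For most genes, the cells of a batch differed from each other by little more than counting error. The counts of each gene over the cells of a batch were compared with those given by the cell totals alone, as a chi-square per degree of freedom, where 1 is the spread of counting. Over genes with at least 100 UMI, the median of this ratio lay between 0.991 and 1.25 in the 8 batches. Across the sums of the 8 batches the ratio had a median of 69.5 over 2004 genes, but it rests on larger counts and another set of genes, so the values for cells and for batches are not on a common scale. Cells of a batch share an animal and a library and were not treated as independent measurements, and comparisons rest on batches and animals. Cells of a batch would also look alike if molecules had been exchanged or misassigned among them, which cannot be told apart in the count table from a like composition of the cells. All values per cell below are those of the cell columns of the table and carry this limit. Why the batches stood apart was not tested.

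Synthesis came first. Gad1 spans positions 70400221 to 70440069 of chromosome 2 (plus strand, build mm9), and its longest annotated coding transcript has 17 exons. In the ChC batches Gad1 was at 555, 544, 1496 and 1480 CPM, and in the Pv batches at 984, 2353, 699.6 and 1115 CPM. The ChC values fell into a low pair from animal 1 and a higher pair from animal 2. Every Pv batch lay above the low pair, and the higher pair lay within the Pv range. Within each ChC animal the batches matched closely, with a ratio of 1.02 (95% counting interval 0.868 to 1.19) in animal 1 and of 1.02 (0.969 to 1.08) in animal 2. The Pv animals were less even, with ratios of 2.39 (2.15 to 2.68) in animal 3 and 1.57 (1.37 to 1.81) in animal 4. The mean was 1019 ± 542 CPM (SD, n = 4) in ChC and 1288 ± 731 CPM (SD, n = 4) in Pv batches, a difference smaller than either SD. A gene on the other strand, 1500002O10Rik, overlaps the start of Gad1 and held 65 UMI in all, against 9838 for Gad1. Whether counting used the strand is not given in the sources used here.

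Gad2 lies on the same chromosome from 22477847 to 22549397 on the plus strand, with 16 exons. It was at 718, 728, 148 and 562 CPM in the ChC batches and at 425, 112, 45.9 and 149 CPM in the Pv batches. The other ChC batches lay above every Pv batch, but batch 3, the deepest of all with 429 Gad2 UMI, lay among the lower Pv batches. Batch 5 was the highest of the Pv batches, and batch 7 rested on 17 UMI. The mean was 539 ± 272 CPM (SD, n = 4) in ChC and 183 ± 167 CPM (SD, n = 4) in Pv batches. Gad2 was the member whose difference of means, 356 CPM, exceeded the SD of both cell types, and the batches nevertheless overlapped. Batches of the same animal differed by 3.75 times in animal 2 (3.33 to 4.24), 3.80 times in animal 3 (2.81 to 5.21) and 3.20 times in animal 4 (1.93 to 5.65), whereas those of animal 1 had a ratio of 1.02 (0.888 to 1.17).

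**Figure D1:**
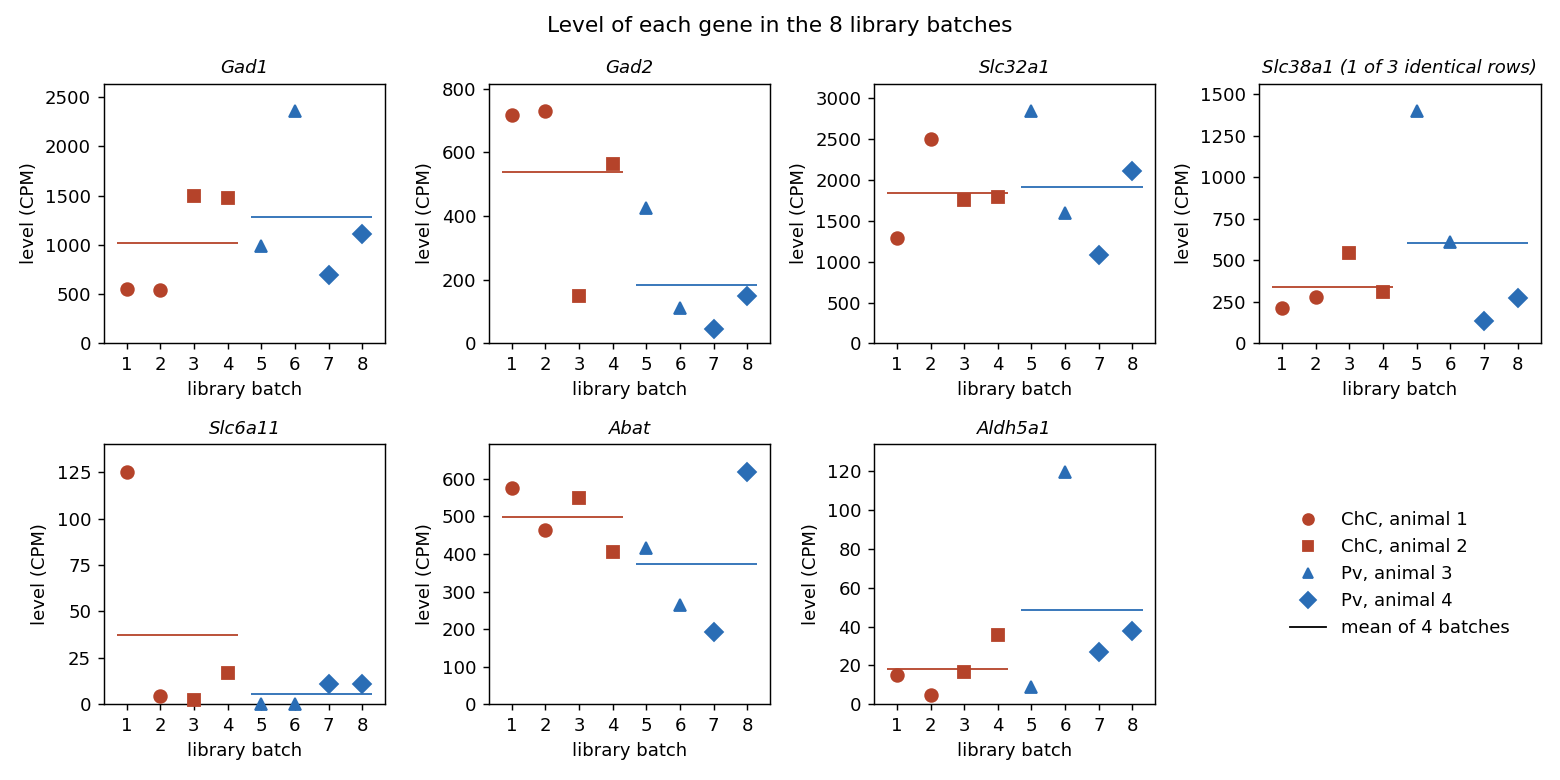
Level of each of the 7 genes (vertical axis, CPM, from 0) in the 8 library batches (horizontal axis), with symbols for the animal, colours for the cell type and lines at the mean of the 4 batches of a cell type. Gad1 sat at 555 and 544 CPM in the batches of animal 1 and at 1496 and 1480 CPM in those of animal 2, while Slc6a11 reached 125 CPM in batch 1 and stayed at or below 16.8 CPM elsewhere.

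The balance of the decarboxylases was read as the Gad1 share of the Gad1 and Gad2 UMI, a value that does not depend on the total of a cell or batch. The share was 0.436 (exact 95% interval 0.398 to 0.474), 0.428 (0.394 to 0.462), 0.910 (0.902 to 0.918) and 0.725 (0.707 to 0.742) in ChC batches 1 to 4. In Pv batches 5 to 8 it was 0.698 (0.661 to 0.734), 0.955 (0.942 to 0.966), 0.938 (0.903 to 0.964) and 0.882 (0.862 to 0.900). Gad2 thus gave more UMI than Gad1 in both batches of animal 1 and in no other batch, and the other ChC batches lay within the range of the Pv batches. Pooled per animal, the share was 0.431 and 0.843 in ChC and 0.867 and 0.893 in Pv cells. The difference of the means, ChC minus Pv, was -0.243 (exact permutation p = 0.333, two-sided, n = 2 animals each), and 0.333 is the smallest p that this design allows. It rested on animal 1, since without it the difference was -0.0365. With the 4 batches of each cell type as samples, the means were 0.625 ± 0.235 and 0.868 ± 0.118 (SD, n = 4 each, exact permutation p = 0.143), although batches of an animal are not independent.

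The share compares a pair of genes of unequal length, 3355 exonic bases for Gad1 and 5744 for Gad2. Tags on molecules primed at the poly(A) tail are meant to count a transcript once whatever its length, so UMI were not divided by length. When they were, an alternative chosen after seeing the data, the share rose to 0.570 in batch 1 and 0.561 in batch 2. Which of the genes gave the higher level in animal 1 thus changed with this choice. The place of animal 1 below the other 3 animals could not change, since division by length scales every Gad1 to Gad2 ratio alike. The shares of those 3 animals became 0.902, 0.918 and 0.935, against 0.565 in animal 1.

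The balance per cell column was close to that of its batch, which, given the limit above, need not be the balance of each cell. Among cells with at least 10 UMI of the 2 genes together, the share ran from 0.316 to 0.692 in batch 1 (11 cells, median 0.452) and from 0.364 to 0.529 in batch 2 (11 cells, median 0.429). It ran from 0.857 to 0.943 in batch 3 (14 cells, median 0.914) and from 0.671 to 0.835 in batch 4 (14 cells, median 0.731). These batches of animal 2 therefore shared no value, and the cells of batch 3 all lay above those of batch 4. The same held in animal 3, where cells ran from 0.600 to 0.745 in batch 5 (15 cells) and from 0.914 to 0.979 in batch 6 (14 cells). In animal 4 the ranges overlapped, from 0.786 to 1 in batch 7 (12 cells) and from 0.808 to 1 in batch 8 (16 cells).

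The spread of the share among cells of a batch was close to that of counting. The chi-square per degree of freedom was 1.13 over all batches together (117 degrees of freedom), between 0.369 in batch 5 and 2.17 in batch 3. Between the batches of an animal it was 173 (4 degrees of freedom), from 0.105 in animal 1 to 445 in animal 2, with 241 in animal 3 and 7.35 in animal 4. These ratios rest on larger counts than those among cells and are not on the same scale. By simple count, Gad1 exceeded Gad2 in all 63 Pv cells. Among the 63 ChC, Gad1 was higher in 34, Gad2 in 27 and neither in 2, and 25 of the 27 cells with more Gad2 came from animal 1.

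**Figure D2:**
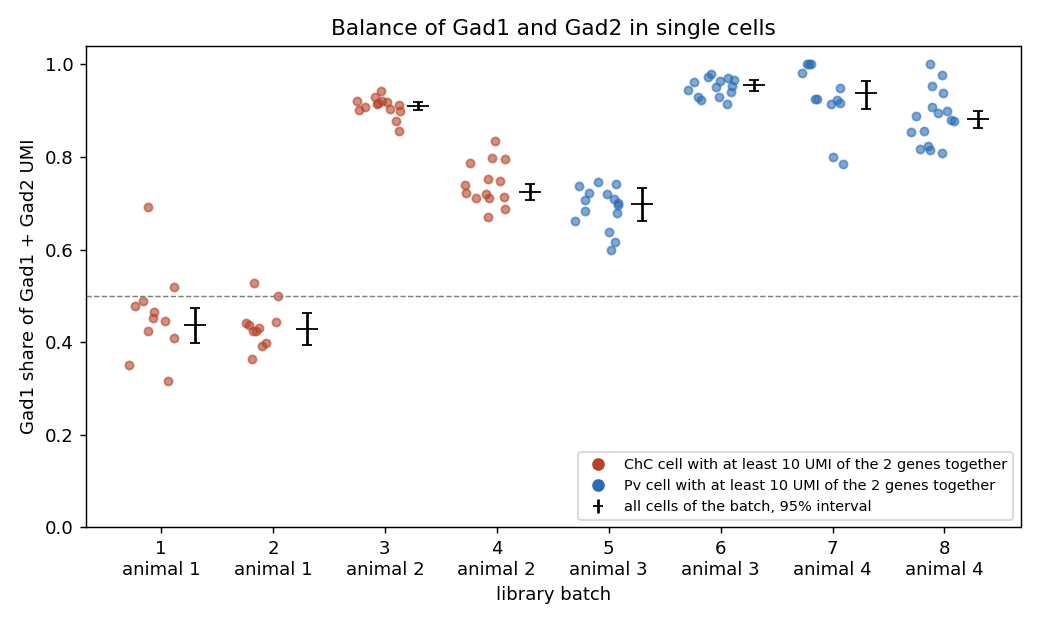
Gad1 share of the Gad1 and Gad2 UMI (vertical axis, from 0 to 1) by library batch (horizontal axis, with the animal below), where coloured points are cells with at least 10 UMI of the 2 genes together, the dashed line marks equal UMI of both genes, and black bars give the share of all cells of the batch with its exact 95% interval. Cells of batch 3 (0.857 to 0.943) and batch 4 (0.671 to 0.835) came from the same animal and did not overlap.

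The transcript for vesicular loading was among the most even over the batches. Slc32a1 lies on chromosome 2 from 158436494 to 158441483 on the plus strand and has 2 exons. Its level was 1290, 2502, 1746 and 1786 CPM in the ChC batches and 2833, 1597, 1086 and 2104 CPM in the Pv batches. The cell types overlapped throughout, with batch 7 lowest and batch 5 highest. The means were 1831 ± 500 CPM (SD, n = 4) in ChC and 1905 ± 745 CPM (SD, n = 4) in Pv batches, a difference well inside either SD. The coefficient of variation over the 8 batches was 31.4%, below that of all but 4.14% of the 2004 genes with at least 100 UMI per batch on average, whose median was 70.3%. With the mean over cells of their CPM in place of the batch sum, it was 33.9%, beside 33.3% for Abat. Even so, batches of the same animal differed by 1.95 times (1.78 to 2.13) in animal 1 and 1.77 times (1.62 to 1.94) in animal 3. They differed by 1.91 times (1.72 to 2.14) in animal 4, whereas those of animal 2 had a ratio of 1.01 (0.962 to 1.06). Among the cells of a batch, Slc32a1 had the highest median chi-square per degree of freedom of the members, 2.16, with a highest value of 2.90 in batch 3.

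Precursor uptake varied more between batches. Slc38a1 lies on chromosome 15 from 96401849 to 96473344 on the minus strand. Counted from 1 row, it was at 212, 282, 546 and 308 CPM in the ChC batches and at 1396, 613, 133 and 276 CPM in the Pv batches. Both batches of animal 3 lay above every other batch, and those of animal 4 lay within or below the ChC range. The mean was 337 ± 145 CPM (SD, n = 4) in ChC and 604 ± 565 CPM (SD, n = 4) in Pv batches, so the difference was within the SD of the Pv batches. Within animals the ratio of the higher to the lower batch ran from 1.33 (1.025 to 1.74) in animal 1 to 2.28 (1.96 to 2.65) in animal 3. Among the cells of a batch the spread was that of counting, with a highest chi-square per degree of freedom of 1.11 over the 6 batches with at least 100 UMI.

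Slc6a11, the GABA transporter of the astrocyte membrane, lies on chromosome 6 from 114081235 to 114199880 on the plus strand and was the rarest member, with 111 UMI in all. It gave 66, 3, 6 and 22 UMI in the ChC batches, which is 125, 4.56, 2.07 and 16.8 CPM. In the Pv batches it gave 0, 0, 4 and 10 UMI, or 10.8 and 10.9 CPM in batches 7 and 8. Batch 1 stood far above the rest, and batch 2 of the same animal was 27.3 times lower (95% counting interval 8.95 to 136). In batches 5 and 6 its absence allows levels of up to 6.57 and 5.98 CPM, so that a level such as that of batch 2 could not have been excluded there. The mean of 37.1 ± 58.98 CPM (SD, n = 4) in ChC was set by batch 1, against 5.41 ± 6.25 CPM (SD, n = 4) in Pv batches. As a mean over cells of their CPM, batch 1 was at 75.7 CPM and the ChC batches at 23.3 ± 35.4 CPM (SD, n = 4).

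The 66 UMI of batch 1 were not those of 1 cell. They came from 9 of its 16 cells, at most 21 in a cell, and were spread as the cell totals were, with a chi-square per degree of freedom of 1.02. By 1 row per gene, the cells with Slc6a11 held a median of 33244 UMI and those without held 5047. Astrocyte markers did not follow the same order of batches. They summed to 241 CPM in batch 1, of which Slc4a4 made up 188 CPM, with Aqp4 and Gja1 at 3.79 CPM each and Aldh1l1, Aldoc, Gfap and Gjb6 at 0. In batch 7, where the summed level was 2020 CPM and 8 of 10 markers had UMI, Slc6a11 was at 10.8 CPM. In batch 4 it was at 16.8 CPM beside 1197 CPM of astrocyte markers. The part of astrocyte RNA in the level of batch 1 was not tested beyond these values.

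Breakdown begins with Abat, which lies on chromosome 16 from 8513522 to 8621660 on the plus strand. Abat was at 576, 465, 548 and 405 CPM in the ChC batches and at 416, 263, 192 and 618 CPM in the Pv batches. The ChC batches lay close together and inside the range of the Pv batches, of which batch 8 was the highest and batch 7 the lowest of all. The mean was 498 ± 78.4 CPM (SD, n = 4) in ChC and 372 ± 189 CPM (SD, n = 4) in Pv batches. Its coefficient of variation over the 8 batches was 34.4%, below that of all but 5.89% of the same 2004 genes. The ratio within an animal was 1.23 (1.05 to 1.45), 1.37 (1.24 to 1.52), 1.58 (1.26 to 1.99) and 3.18 (2.48 to 4.13) in animals 1 to 4. Among cells of a batch Abat varied about as counting gives, with a median chi-square per degree of freedom of 1.00.

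Aldh5a1, the enzyme of the following step, lies on chromosome 13 from 24999448 to 25029530 on the minus strand and gave 215 UMI in all. It was at 15.2, 4.56, 16.6 and 35.9 CPM in the ChC batches and at 8.76, 120, 27.01 and 37.99 CPM in the Pv batches. Batch 6 was far above batch 5 of the same animal, by 13.7 times (95% counting interval 5.07 to 51.8), on 60 against 4 UMI. Of the other Pv batches, batch 8 lay just above the highest ChC batch, and batches 5 and 7 lay within the ChC range. With batch 6 left out of animal 3, its log2 fold change (ChC over Pv) went from -1.66 to -0.38. A gene on the other strand, 4932702P03Rik, overlaps the end of Aldh5a1 and held 214 UMI, nearly as many as Aldh5a1 itself. Since the use of strand is not known, UMI of this pair may not be separable and the level of Aldh5a1 is uncertain.

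The comparison of ChC with Pv cells asked whether any member differed by more than the animals did. UMI were summed per animal and tested with edgeR's quasi-likelihood test across 9829 genes, 2 animals against 2, with Benjamini-Hochberg adjustment over all of them. All 7 members passed the filter on low counts, and 0 of 7 were past the adjusted threshold of 0.05. The background was the same, since 0% of all genes tested passed it. The smallest adjusted p of any gene was 0.185. Unadjusted p lay under 0.05 for 616 genes (6.27%) and for 0 of the 7 members. DESeq2 on the same sums called 166 of the 16531 genes with a UMI (1.00%). Its own filter on low counts can leave genes without an adjusted p, so the share among genes with one may be higher. Leaving out animal 1, 2, 3 or 4, edgeR called 17, 51, 7 and 100 genes (0.145, 0.456, 0.0591 and 0.888% of those tested). None of these was a member, which at such shares does not set the members apart from other genes. As to ranges, 0 of 7 members had all batches of a cell type above all batches of the other, against 4.21% of the genes tested.

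No member had a fold change as large as 2 SE. The SE was taken as the absolute log2 fold change divided by the square root of the F statistic of the test. It thus restates the test and is no separate measure of spread. Gad2 was higher in ChC by a log2 fold change of 1.42 (SE 0.78, edgeR adjusted p = 0.881) and Slc6a11 by 2.72 (SE 1.96, adjusted p = 0.935), while Abat was at 0.37 (SE 0.56, adjusted p = 0.991). Gad1 was at -0.40 (SE 0.61, adjusted p = 0.991), Slc32a1 at -0.06 (SE 0.42, adjusted p = 0.999), Slc38a1 at -0.81 (SE 0.73, adjusted p = 0.981) and Aldh5a1 at -1.66 (SE 1.33, adjusted p = 0.957). The median of the 7 members was -0.06, beside 0.04 over all genes tested. The log2 fold change of Gad2 was 0.52, 1.97, 2.30 and 0.88 without animals 1 to 4, and between 0.83 (without batch 6) and 2.20 (without batch 5) with a batch left out. That of Slc6a11 was 0.40, 3.59 and 1.81 without animals 1 to 3. Without animal 4 the Pv cells left held none of it, and the fitted value is no estimate of size. Abat was at 1.01 without batch 8 and at 0.13 without batch 7. Gad1 ran from -1.24 without animal 2 to 0.22 without animal 3, and was at 0.13 without animal 1. Slc38a1 ran from -1.55 without animal 4 to 0.79 without animal 3, and Aldh5a1 from -2.39 without animal 2 to -0.38 without batch 6. The sign of Slc32a1 turned under 7 of 18 settings, at sizes of at most 0.25. A missed threshold does not show that the levels were alike.

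Per cell column, the transcripts for synthesis and loading were mostly found together, a count that an exchange of molecules within a batch could raise. Slc32a1 was detected, with at least 1 UMI, in all 126 cells, Gad1 in 125, Abat in 125, Slc38a1 in 119 and Gad2 in 117. Aldh5a1 was detected in 67 cells (53.2%) and Slc6a11 in 33 (26.2%). Gad1, Gad2 and Slc32a1 were all detected in 117 of 126 cells, which is 92.9%. No interval is given, since cells of a batch are not independent. By batch this was 15 of 16, 16 of 16, 15 of 16 and 15 of 15 ChC, and 16 of 16, 15 of 15, 10 of 16 and 15 of 16 Pv cells. Batch 7 was the exception, at 62.5%, and its other 6 cells had no Gad2. No cell of any batch had Gad2 without Gad1, and 8 had Gad1 without Gad2.

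The cells without Gad2 held few molecules for its level. At the Gad2 level of their batch, the 9 cells would have held between 0.205 and 1.78 UMI of it on average, with a median of 0.818, and none more than 3. The 1 cell without either decarboxylase, in batch 1, held 1010 UMI by 1 row per gene and a single Slc32a1 molecule. Expected UMI for Gad1 in that cell were 0.660. Absence of a decarboxylase was therefore not detectable at this depth in any of these cells. No cell type that should lack GABA was profiled beside them, so no background share can be set against these numbers.

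Thinning to a common depth showed how far detection rested on depth. With each cell reduced to 10000 UMI, the expected share of cells with Gad1, Gad2 and Slc32a1 was 95.3% in ChC (48 cells) and 76.0% in Pv cells (55 cells), leaving out 15 ChC and 8 Pv cells below that depth. Unthinned, it was 96.8% of 63 ChC and 88.9% of 63 Pv cells. Gad2 alone set the difference, at 95.4% against 76.0%, while Gad1 and Slc32a1 were expected in over 99% of cells of each type. By batch the share for the 3 genes was 99.9, 99.9, 84.4 and 99.8% in ChC, and 99.7, 76.2, 52.1 and 74.5% in Pv batches. Batches with Gad2 at 425 CPM or more were thus above 99%, among them batch 5 of the Pv cells, and those at 149 CPM or less were at 52.1 to 84.4%, among them batch 3 of the ChC. At 5000 UMI the ChC share was 84.3% (55 cells) and the Pv share 57.1% (61 cells).

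Detection of the rarer members also followed their batches. At 10000 UMI per cell, Slc6a11 was expected in 66.8% of the cells of batch 1, in 16.3% of those of batch 4 and in at most 11.9% elsewhere. Aldh5a1 was expected in 70.2% of the cells of batch 6 and in at most 34.6% elsewhere. Slc38a1 ranged from 81.6% in batch 7 to 100% in batch 5, and Abat from 85.3% in batch 7 to 99.9% in batch 8. Gad1, Gad2, Slc32a1, Abat and Aldh5a1, the line from synthesis to breakdown, were found in the same cell in 31 of 63 ChC and 34 of 63 Pv cells. All 7 members were found in 25 of 126 cells, 17 ChC and 8 Pv cells. These last counts were not thinned and rise with the depth of a cell.

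**Figure D3:**
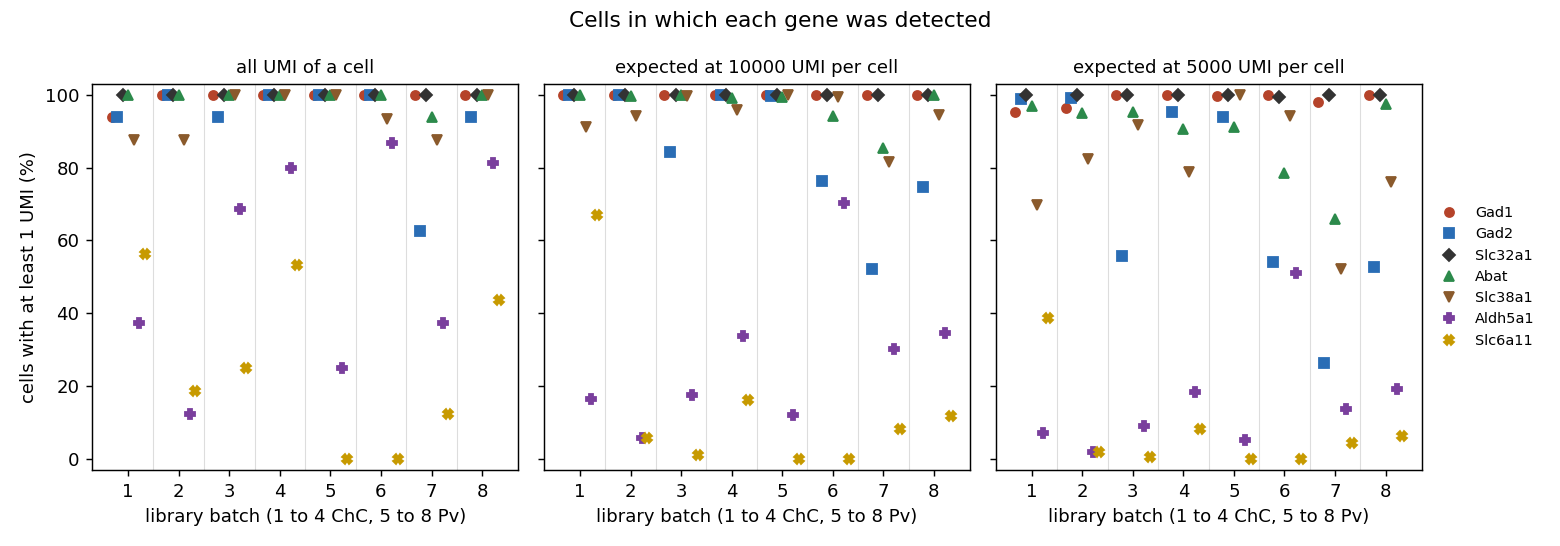
Percent of cells with at least 1 UMI of each gene (vertical axis) by library batch (horizontal axis, batches 1 to 4 ChC, 5 to 8 Pv), with all UMI of a cell, and the expectation after thinning each cell to 10000 or 5000 UMI. Slc32a1 stayed near 100% in every batch, whereas Gad2 fell to 62.5% in batch 7 unthinned and to 52.1% at 10000 UMI.

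Correlations among the cells of a batch had little room, since most of the spread of the members there was that of counting (median chi-square per degree of freedom 0.908 to 1.48, and 2.16 for Slc32a1). Spearman correlations of the CPM of a cell were averaged over the 8 batches, with 15 or 16 cells in each, among the 5165 genes detected in at least 50% of all cells. For Gad1 and Gad2 the mean was 0.0711, and the batches ran from -0.259 to 0.409. It was 0.00341 for Gad1 and Slc32a1, and 0.122 for Gad2 and Slc32a1. In sparse counts such values are no finding. With UMI in place of CPM the same pairs were at 0.815, 0.930 and 0.822, beside a median of 0.683 over all genes with Gad1, and UMI carry the depth of the cell.

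The genes most like Gad1 by this measure were Gapdh (0.412), Pgls (0.384, over 7 batches) and Sncb (0.343). Those most like Gad2 were Atp6v1b2 (0.331), Rpl9 (0.301) and Srp14 (0.299), and those most like Slc32a1 were Rpl11 (0.359), Ptma (0.351) and Cplx1 (0.347). Of the members, Abat ranked 193 of 5164 genes with Gad1, at 0.213 and above 0 in 7 of 8 batches, and Aldh5a1 854. With Gad1, Gad2 ranked 1815, Slc32a1 3134 and Slc38a1 4594. With Gad2 the ranks were 387 for Slc32a1, 668 for Abat, 887 for Gad1, 2872 for Aldh5a1 and 2916 for Slc38a1. With Slc32a1 they were 576 for Gad2, 916 for Abat, 1309 for Slc38a1, 2187 for Gad1 and 2409 for Aldh5a1. Slc6a11 was detected in too few cells to be ranked.

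Other genes of the pathway were read from lists of 46 names for 45 genes, since Plpbp is the newer name of Prosc and both were listed. All 45 had a row and a UMI, and 40 were tested. None of the 40 passed the adjusted threshold over animals, beside 0% of all genes. Of the plasma membrane GABA transporters listed beside Slc6a11, Slc6a12 and Slc6a13, which act mostly outside neurons, were detected in 3 and 1 cells, all of batch 1, the batch with the most Slc6a11. Slc6a13 was named after its values were seen. Both had too few UMI to be tested.

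Of the 13 genes for precursor supply and glutamate handling, 12 were tested, 6 higher and 6 lower in ChC, with a median log2 fold change of 0.04. Slc1a2, a glutamate transporter listed also as an astrocyte marker, and Glul, glutamine synthetase, had the highest levels with rows summed. Slc1a2 has 3 rows, and with 1 row per gene its mean over the 8 batches was 176 CPM, rank 5 of the list, beside 331 CPM for Glul. Summed, Slc1a2 was at 305 ± 265 and 304 ± 511 CPM and Glul at 282 ± 222 and 284 ± 352 CPM in ChC and Pv batches (SD, n = 4 each). These means rested largely on batches 4 and 7, the batches of each cell type with the most CPM of astrocyte markers (1197 and 2020 CPM, Slc1a2 included). Slc1a2 was at 30.3, 313, 217 and 661 CPM in the ChC batches and at 26.3, 7.98, 1067 and 113 CPM in the Pv batches. Glul was at 58.7, 210, 275 and 587 CPM and at 8.76, 1.99, 737 and 388 CPM. Of the 4 genes that make or handle pyridoxal phosphate, the cofactor of decarboxylases and transaminase, 2 were higher and 2 lower, with a median of 0.29. Prosc, with 2 rows summed, was at 201 ± 151 and 202 ± 356 CPM, and Pdxp was at 134 ± 101 and 85.8 ± 21.9 CPM in ChC and Pv batches (SD, n = 4 each). The Pv mean of Prosc was set by batch 6, at 735.7 CPM, beside 4.38, 21.6 and 45.6 CPM in the other Pv batches, and its ChC batches were at 398, 202, 170 and 32.9 CPM. The ChC mean of Pdxp was raised by batch 2, at 275 CPM, beside 108, 35.9 and 116 CPM in the other ChC batches and 67.8 to 117 CPM in Pv.

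The 10 genes of vesicle filling and decarboxylase anchoring had a median log2 fold change of -0.13, with 5 higher and 5 lower in ChC. Atp6v0c, a subunit of the proton pump that drives vesicle loading, was at 2355 ± 633 and 2793 ± 1192 CPM in ChC and Pv batches (SD, n = 4 each), with counts that cannot be told apart from those of its pseudogene Atp6v0c-ps2. Atp6v1b2, another subunit of the pump, was at 1205, 509, 1011 and 1109 CPM in the ChC batches and at 1330, 2111, 1288 and 1693 CPM in the Pv batches. All Pv batches thus lay above all ChC batches, as they did for Atp6v0d1, a gene named after its values were seen, which was at 20.4 to 56.8 CPM in ChC and 104 to 158 CPM in Pv batches. Their log2 fold changes over animals were -0.79 (SE 0.45, edgeR adjusted p = 0.883) and -1.74 (SE 1.03, adjusted p = 0.888), neither past the threshold.

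For the succinate and succinic semialdehyde branch, 10 genes were tested. Of these, 9 had a log2 fold change below 0 (lower in ChC), with a median of -0.64. Over all genes tested, 48.5% were below 0 and the median was 0.04. None of the 10 passed the threshold. Ogdh, a subunit of the oxoglutarate dehydrogenase complex with 2 rows summed, was at 276 ± 188 CPM in ChC and 626 ± 545 CPM in Pv batches (SD, n = 4 each), with a log2 fold change of -1.31 (SE 0.61, edgeR adjusted p = 0.817). Suclg1, a subunit of succinyl-CoA ligase, was at 331 ± 143 and 385 ± 272 CPM in ChC and Pv batches (SD, n = 4 each). Batch 6 was the highest Pv batch for both, at 1348 CPM for Ogdh, beside 26.3 to 606 CPM in the other Pv batches, and at 779.6 CPM for Suclg1, beside 193 to 351 CPM. The ChC batches were at 60.6, 283, 243 and 517 CPM for Ogdh and at 394, 394, 116 and 419 CPM for Suclg1. The batches of Sucla2, another subunit of that ligase and named after its values were seen, did not overlap. They were at 62.5, 18.2, 120 and 46.6 CPM in ChC and at 386, 383, 130 and 179 CPM in Pv, a log2 fold change of -2.02 (SE 0.91, adjusted p = 0.808). In all, 3 of the 40 listed genes tested did not overlap between the cell types, beside 4.21% of all genes tested.

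Of the 5 genes on routes to GABA without a decarboxylase, 3 were tested. Maoa, a monoamine oxidase of the putrescine route, was at 5.09 ± 10.2 CPM in ChC and 157 ± 289 CPM in Pv batches (SD, n = 4 each), and Odc1, which makes putrescine, was at 19.1 ± 19.8 and 21.4 ± 33.04 CPM. The Pv mean of Maoa was set by batch 6, at 590.2 CPM, beside at most 17.4 CPM in the other Pv batches, and that of Odc1 by batch 8, at 70.6 CPM, beside at most 10.8 CPM. In ChC, Maoa had counts in batch 3 alone (20.4 CPM), and Odc1 was at 22.7, 0, 45.2 and 8.41 CPM. The log2 fold change of Maoa, -4.54 (SE 1.97), did not pass the threshold (edgeR adjusted p = 0.793).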

How the data were processed

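The authors aligned reads from poly(A)-primed RNA to mm9 (Bowtie 0.12.7 in the submitters' processing notes) and counted each random tag once per gene and cell. The deposited table holds these counts, not normalized, in 27207 rows. The table has 128 cell columns, each with a name of its own, and 2 cells without a count were left out. Barcode sequences were not used here. Rows were summed per gene name. Of 2641 names with several rows, 883 hold identical counts above 0 in every row, so sums count such molecules repeatedly. Detection, co-detection, spread over cells and thinning therefore used the row with the most UMI.

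UMI summed per animal were tested with edgeR 4.0.16 (glmQLFit, TMM, filterByExpr, Benjamini-Hochberg, threshold 0.05) in R 4.3.3, and with DESeq2 1.42.0, no filter, library size without TMM, batches as samples, 1 row per gene, thinned cells and each animal or batch left out as alternatives. Other steps ran in Python 3.11.15 with scipy 1.17.1. Shares were compared by exact permutation over animals. Thinned shares are expectations of drawing without replacement. Intervals are exact at 95% and, like the floor of 3 counts, cover counting error only. Methods were tested on simulated counts. Genes named are the 7 members, the 2 with the highest mean CPM (rows summed) of each list and any past the threshold, and the 3 most correlated with Gad1, Gad2 and Slc32a1. Atp6v0d1, Sucla2 and Slc6a13 were added after their values were seen. A listed gene that the rule names is not reported here. Gene positions come from the deposited table and exons from the GENCODE annotation of the same build. Members, lists and alternatives were chosen with earlier results of these data known. With 2 animals per cell type and between 370238 and 2898413 UMI per batch (rows summed), small differences and rare transcripts could not be resolved.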

Additional observations from a re-analysis of the deposited data

Results flagged for a closer look

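Among 18 sets of 4 batches (the 7 levels, the Gad1 share and the share of cells with Gad1, Gad2 and Slc32a1, in each cell type), 2 held a batch far from the others of its cell type. Chance flags about 1 in 20 such sets. Slc6a11 in ChC batch 1 was at 125 CPM, and the nearest ChC batch was at 16.8 CPM, a gap of 0.880 of the range of the ChC batches. The share of cells with Gad1, Gad2 and Slc32a1 all detected was 62.5% in Pv batch 7, against 93.75% in the nearest Pv batch, a gap of 0.833 of the range. Batch 7 was also the shallowest batch and held the highest levels of pyramidal and astrocyte markers. Their part in its low Gad2 level was not tested.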

How the results depend on the processing

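Of 123 combinations of a member's fold change and a setting, 112 kept the sign and stayed short of the threshold, and 11 turned the sign, none of them past the threshold. For Gad1 leaving out an animal gave log2 fold changes from -1.24 to 0.22, with the sign turned without animals 1 (0.13) and 3 (0.22), and leaving out a batch gave -0.75 to 0.03. For Slc32a1 these ranges were -0.31 to 0.25 and -0.34 to 0.24, and thinning cells to 10000 UMI gave 0.051. For Slc38a1 they were -1.55 to 0.79 and -1.31 to -0.27. The causes were not tested. Gad2, Slc6a11, Abat and Aldh5a1 kept their sign under every setting that could be fitted, Slc6a11 at a fitted 9.13 without animal 4, when every Pv cell left had none of it, so that this value is no estimate of size. It could not be tested with batches as samples, with thinned cells or without batch 1.

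The count of genes called over animals was 0 and depended on the setting. It was 166 with DESeq2 (1.00% of the 16531 genes with a UMI) and 80 with no filter on low counts (0.484%). It was 5 with the library batches as samples (0.0771% of 6481) and 1 with cells thinned to 10000 UMI (0.0175% of 5725). With 1 row per gene or without TMM it stayed at 0. Leaving out an animal, where the lone animal is assumed to vary like the pair, gave 7 to 100 (0.0591 to 0.888%), and leaving out a batch gave 0 to 1. None of these calls was a member, which at such shares does not set the members apart from other genes. The cause was not tested. The Gad1 share difference kept its sign throughout, from -0.449 without animal 2 to -0.0365 without animal 1, and from -0.302 to -0.158 without a batch. It was -0.193 with UMI per exonic length, chosen after seeing the data, a setting that cannot change the order of the animals.

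The share of cells with Gad1, Gad2 and Slc32a1 moved from 92.9% to an expected 69.98% at 5000 UMI per cell, with 116 cells left, as fewer molecules were drawn. It was 85.0% at 10000 UMI, 81.7% with at least 2 UMI per gene, and 91.8 to 97.3% without a batch. Of the 9 genes most like Gad1, Gad2 or Slc32a1 by CPM, 0 were among those named by UMI. Of 42 levels under other scalings, 40 moved by less than 1 SD. The others, in ChC batches, were Slc38a1, at 860 CPM with rows summed and 337 CPM from 1 row, and Abat, at 498 CPM and, with 1 row per gene, 586 CPM. In Pv batches Slc38a1 was at 1559 CPM with rows summed and 604 CPM from 1 row. This move lay within its SD of 1457 CPM. Depth limits Slc6a11 and Aldh5a1 most, since a batch held as few as 0 and 3 of their molecules.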
